A study of Homo sapiens with 20 samples.

Results

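A group of 10 genes whose transcripts were higher with 9-cis retinoic acid (9-cis RA) than with all-trans retinoic acid (ATRA) is described here in Mel202 uveal melanoma cells: SERPINA3, ETNPPL, PHLDA2, ADGRG1, DNM3, ARHGDIB, IL1RAPL1, VGF, UPP1 and KIAA1217. They are 10 of the 10673 genes tested, and were chosen by the measured difference between the retinoids, so that difference is given as a description and is not tested. Mel202 is a single cell line from a recurrent, earlier irradiated primary tumour of the eye, carries mutant GNAQ and is wild type for BRAF, and all groups share this background. Cells in 6-well plates received 100 nM ATRA or 100 nM 9-cis RA dissolved in ethanol, or ethanol alone (EtOH), for 24 or 48 h, which gives 6 groups. The 20 Illumina arrays were reduced to 14 samples by averaging arrays whose titles share a number, so that each time has 2 samples of EtOH, 3 of ATRA and 2 of 9-cis RA. Samples carry the replicate numbers of their arrays, and replicate 2-3 averages 2 arrays. Whether they came from separate cultures is not stated, so the p-values cover the spread between these samples alone, which may be technical.

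Retinoic acid acts through nuclear receptors. The retinoic acid receptors (RARs) pair with retinoid X receptors (RXRs) on DNA repeats of a short half-site and switch nearby genes when ligand binds. ATRA is a ligand of the RARs, while its isomer 9-cis RA, which differs in the geometry of a side chain double bond, binds the RARs and also the RXRs. RXRs are partners of other receptors too, among them the liver X receptors (LXRs) and the peroxisome proliferator-activated receptors (PPARs). The comparison of the isomers therefore asks which transcripts depend on which retinoid is given.

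A probe counted as detected on an array at a deposited detection p under 0.01, and 26.5 to 36.2% of the 47323 probes were detected per array. The arrays fell into a set of 12 with 15870 to 17128 detected probes and a set of 8 with 12561 to 14301, and ATRA replicate 4 at each time lay only in the second set. On the second principal component (17.5% of the variance) both 9-cis RA 24 h samples and ATRA replicate 4 at 24 and 48 h stood apart, at -23.95 to -15.4 against -2.832 to 19.46 for the other samples. Levels are given below per sample, with ATRA replicate 4 always the last of the 3 ATRA values. Of 10 melanocyte markers, the 9 with a named probe (PMEL, MLANA, TYR, TYRP1, MITF, SOX10, SLC45A2, OCA2 and MLPH) were detected on all 20 arrays. In bulk RNA, fewer cells of a kind and less RNA per cell cannot be told apart. The retinoid targets CYP26A1, which breaks down retinoic acid, and RARB, a retinoic acid receptor, rose with the pooled retinoids at 24 h by 6.37 ± 0.11 and 1.32 ± 0.14 on the log2 scale (limma's moderated test, adjusted p = 6.66e-13 and 4.39e-05). The differences of 9-cis RA from ATRA at 24 h were 0.29 ± 0.13 for CYP26A1 and 0.01 ± 0.15 for RARB.

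Upstream sequence was matched by symbol to RefSeq (GRCh38.p14), which gave 18 windows for 9 of the genes, each of 250 bases before and 50 after a start site. The half-site was searched on both strands as AGGTCA, as the variant GGGTCA, as the variant AGTTCA or as the variant GGTTCA. It lay in 10 of the 18 windows, against 38.6% of 35116 windows of all genes. Windows of a gene can overlap, and those of ARHGDIB with a match hold the same half-sites, so nothing is read from that count. A share by gene was not taken over all genes, so no count by gene is given. Pairs of these half-sites in direct repeat with a spacing of 1, 2, 4 or 5 bases lay in 0 of the 18 windows, against 0.131, 0.0399, 0.0854 and 0.0883% of all windows. The cyclic AMP response element TGACGTCA lay in 1 window each of VGF and KIAA1217, against 1.85% of all windows, and TTCNNNGAA, a motif of STAT factors, in 1 window each of ADGRG1 and KIAA1217, against 7.66%. Matches may overlap other motifs, and a match describes the letters only. These stretches are printed 5′ to 3′ on the strand of the gene, ending before the start site: SERPINA3 and UPP1 with 1 half-site each, ARHGDIB with 3 in 1 window, and VGF with its cyclic AMP response element. Capitals mark the named motif.
SERPINA3 (chr14:94612146-94612251, plus strand): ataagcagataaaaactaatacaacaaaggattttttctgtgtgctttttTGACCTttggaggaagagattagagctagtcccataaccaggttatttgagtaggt
ARHGDIB (chr12:14951229-14951334, minus strand): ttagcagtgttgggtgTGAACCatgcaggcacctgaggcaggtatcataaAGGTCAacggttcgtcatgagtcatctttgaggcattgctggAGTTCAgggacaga
UPP1 (chr7:48088487-48088592, plus strand): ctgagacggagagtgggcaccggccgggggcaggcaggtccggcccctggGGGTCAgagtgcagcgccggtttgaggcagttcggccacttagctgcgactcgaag
VGF (chr7:101165591-101165698, minus strand): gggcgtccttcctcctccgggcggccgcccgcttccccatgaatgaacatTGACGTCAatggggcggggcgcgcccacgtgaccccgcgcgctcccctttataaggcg
The capitals begin 195 bases before the start site in SERPINA3, 167 before it in UPP1 and 79 before it in VGF. Those of ARHGDIB begin 167, 133 and 91 bases before it.

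The 10 genes have 12 probes, ADGRG1 and UPP1 having 2 each, and all 10 genes passed the filter of detection on at least 3 arrays. For SERPINA3, ETNPPL, PHLDA2, DNM3 and ARHGDIB this rested on the 9-cis RA arrays: on the 14 EtOH and ATRA arrays they were detected on 1, 0, 2, 2 and 2 arrays. The other 5 genes would have passed on those 14 arrays alone. Levels below are log2 intensities after background correction and quantile normalization, and are compared only within a probe. Both 9-cis RA samples lay above all 3 ATRA samples of the same time in 10 of the 10 genes at 24 h and at 48 h, where 20.7% and 11.8% of all tested genes showed that order. Since the genes were chosen for this difference, nothing is read from that count. By the mean difference over both times, SERPINA3 ranked 1, PHLDA2 3, ETNPPL 6, ADGRG1 7, DNM3 9, ARHGDIB 10, IL1RAPL1 13, VGF 14, UPP1 15 and KIAA1217 25 among the 10673 genes. All 10 were among the 20 genes (0.187%) past an adjusted p of 0.05 in that mean. At 24 h alone 5 of them were past it (0.0656% of all genes), and at 48 h alone SERPINA3 and IL1RAPL1 (0.0281%). The genes were chosen by this same difference, so these calls are no test of it and nothing is read from them.

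**Figure D1:**
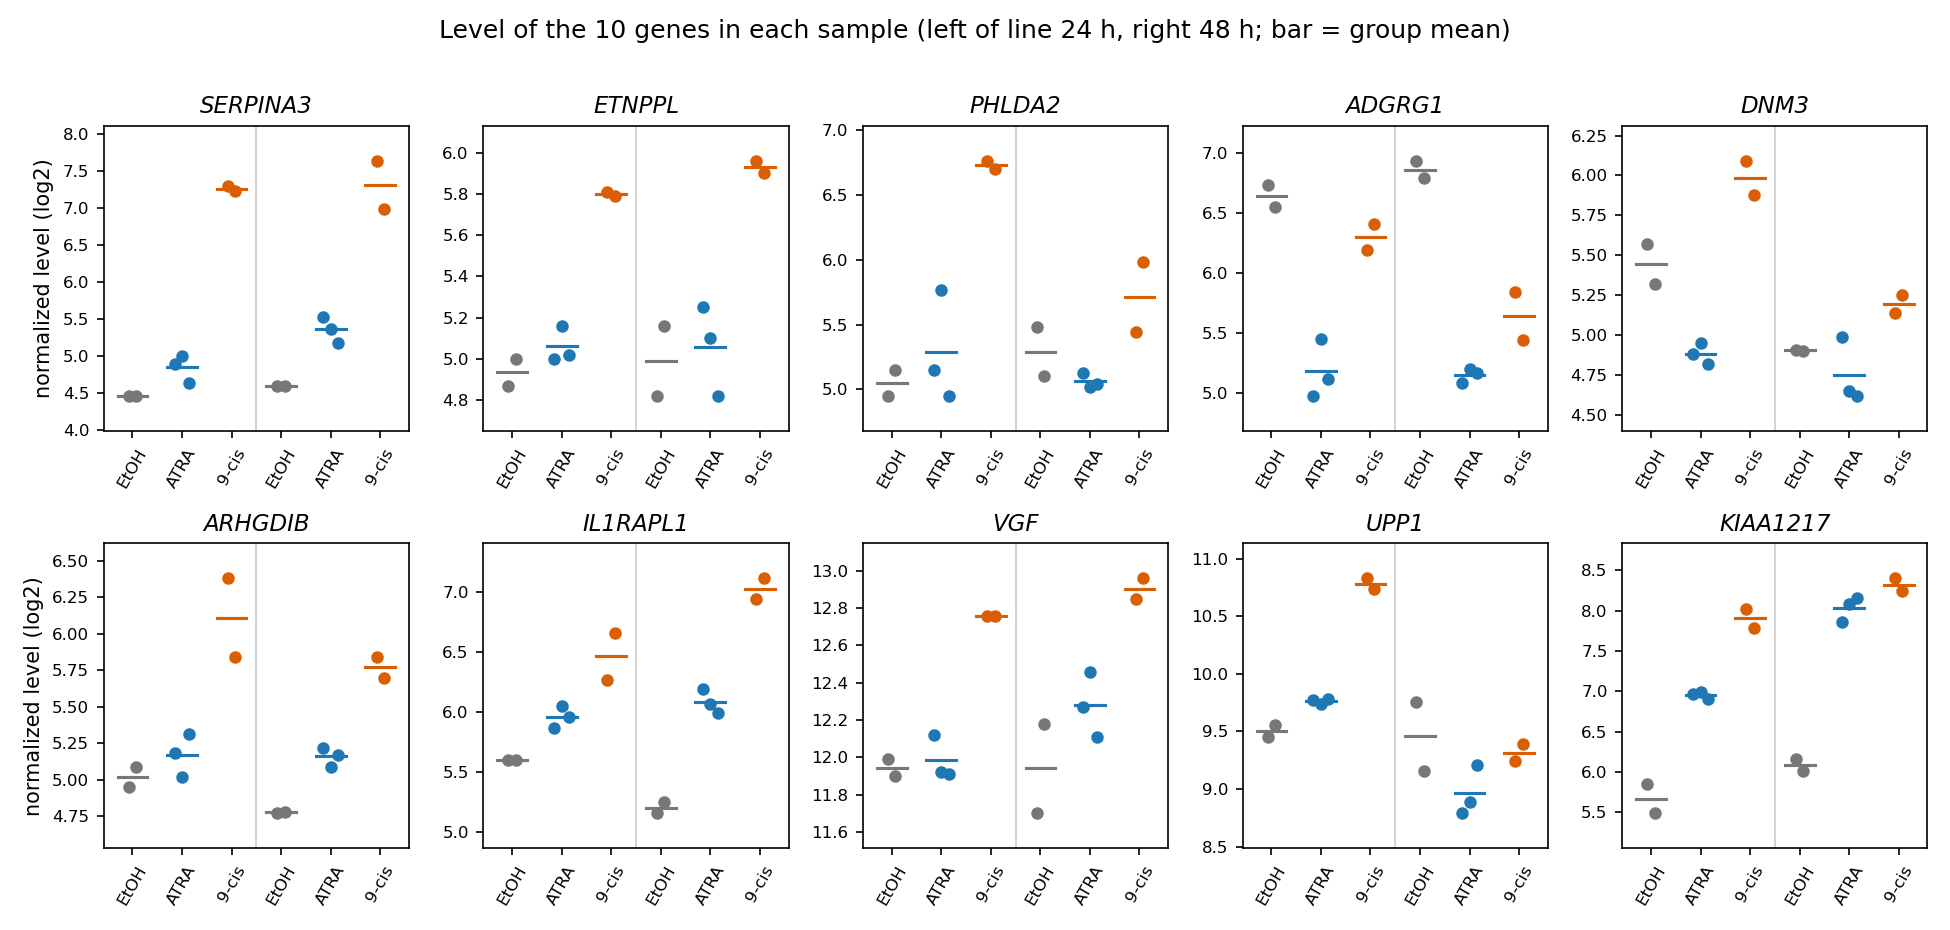
Normalized log2 level of each of the 10 genes in each of the 14 samples, with a bar at the group mean; grey is EtOH, blue ATRA and orange 9-cis RA, with 24 h left of the line and 48 h right of it. Both 9-cis RA samples lie above the 3 ATRA samples of their time in every panel, and in the panel of ADGRG1 the EtOH samples are the highest.

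The test of the retinoid effect compares the pooled retinoid samples (3 ATRA and 2 9-cis RA samples, each with the same weight) with EtOH at the same time. Its error is independent of that of the difference between the retinoids when samples vary equally, although the estimate of the spread is shared. The pooled mean holds the 9-cis RA samples, so a gene raised by 9-cis RA alone can pass. How many of the 10 genes pass is therefore not independent of their choice, and nothing is read from that number. ADGRG1, VGF, UPP1 and KIAA1217 would have passed the filter on the EtOH arrays alone or on the retinoid arrays alone. At 24 h UPP1 and KIAA1217 rose, where 6.86% of all tested genes rose, and ADGRG1 fell, where 4.93% fell. At 48 h VGF and KIAA1217 rose against a background of 9.53%, and ADGRG1 fell against 9.76%. IL1RAPL1 was past the threshold on the higher side at both times. It passed the filter only with retinoid arrays, so its calls carry that limit. With ATRA alone against EtOH, UPP1 at 24 h (0.26 ± 0.18), IL1RAPL1 at 24 h (0.36 ± 0.14) and VGF at 48 h (0.34 ± 0.16) did not pass (limma). KIAA1217 and ADGRG1 passed with ATRA alone at both times, and IL1RAPL1 at 48 h. SERPINA3, ETNPPL, PHLDA2, DNM3 and ARHGDIB passed the filter through 9-cis RA arrays that are themselves part of the pooled samples. Their pooled values are a description with no test. On the same threshold SERPINA3, PHLDA2 and ARHGDIB were higher at 24 h and SERPINA3 and ARHGDIB at 48 h, which makes 7 of the 10 genes past it at 24 h and 6 at 48 h. With each sample left out in turn the number past the threshold lay between 3 and 8 at 24 h, the low counts coming without an EtOH or a 9-cis RA sample of that time, and between 4 and 8 at 48 h. Within the larger array set alone 6 passed at 24 h and 6 at 48 h. Within the smaller set KIAA1217 alone passed at 24 h, and ADGRG1 and KIAA1217 at 48 h.

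SERPINA3 encodes alpha-1-antichymotrypsin, a secreted inhibitor of serine proteases that is also an acute phase protein of the liver. Its level was 4.46 and 4.46 in the EtOH samples at 24 h, 4.89, 5.00 and 4.64 with ATRA, and 7.29 and 7.23 with 9-cis RA. At 48 h it was 4.60 and 4.59 with EtOH, 5.53, 5.36 and 5.18 with ATRA, and 7.63 and 6.99 with 9-cis RA. The 3 treatments did not overlap at either time, and 9-cis RA was far above both others. The probe was detected on 3 of 3 arrays with 9-cis RA at each time, on 0 of 3 with EtOH at each time, on 0 of 4 with ATRA at 24 h and on 1 of 4 with ATRA at 48 h. Where a group is undetected, the signal of the lowest detected probes stands in for it, and the fold is then a bound on the ratio of these samples' means with no sampling error. Differences on the log2 scale use the signals as measured, including undetected ones. SERPINA3 in the 9-cis RA samples was at least 2.97-fold higher than in EtOH at 24 h and at least 3.06-fold higher at 48 h, and at least 2.54-fold higher than with ATRA at 24 h. The measured difference of 9-cis RA from ATRA was 2.42 ± 0.18 (SE) on the log2 scale at 24 h and 1.96 ± 0.18 at 48 h. The pooled retinoids differed from EtOH by 1.35 ± 0.17 at 24 h and 1.54 ± 0.17 at 48 h, at least 1.09-fold and 1.36-fold over the EtOH bound. Without the samples that stood apart, which leaves ATRA alone at 24 h, the 24 h difference was 0.48. In the smaller array set alone it was 1.02, and 1.14 at 48 h.

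Of the other serpins on a list, 5 were tested. SERPINE2, an inhibitor of thrombin and urokinase, rose with the retinoids at 24 h by 1.08 ± 0.14 and SERPINI1, neuroserpin, fell by 1.95 ± 0.19 (limma, adjusted p = 0.000309 and 1.96e-05). Their 9-cis RA minus ATRA values at 24 h were 0.33 ± 0.16 and -0.6 ± 0.21, and 0 of the 5 passed in that contrast. Of 8 tested acute phase and STAT3 genes, CEBPD, a transcription factor of that response, rose at 24 h by 0.81 ± 0.14 (limma, adjusted p = 0.00204), and its difference of 9-cis RA from ATRA was -0.33 ± 0.15.

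KIAA1217 encodes a cytoplasmic coiled-coil protein whose mouse counterpart is needed for normal intervertebral discs. It was 5.85 and 5.49 with EtOH at 24 h, 6.97, 6.99 and 6.91 with ATRA, and 8.02 and 7.79 with 9-cis RA. At 48 h the levels were 6.16 and 6.01 with EtOH, 7.86, 8.08 and 8.16 with ATRA, and 8.40 and 8.24 with 9-cis RA. Both retinoids lay above EtOH at both times, and the gap between them was smaller at 48 h. The 9-cis RA minus EtOH difference was 2.23 ± 0.17 at each time, while the ATRA minus EtOH difference was 1.28 ± 0.15 at 24 h and 1.95 ± 0.15 at 48 h. The 9-cis RA minus ATRA difference was thus 0.95 ± 0.15 at 24 h and 0.28 ± 0.15 at 48 h. The change of that difference between the times did not pass the threshold (-0.66 ± 0.21, limma, adjusted p = 0.405). KIAA1217 was chosen on these values, so nothing is read from that outcome. With the pooled retinoids KIAA1217 rose by 1.66 ± 0.14 at 24 h and 2.06 ± 0.14 at 48 h (limma, adjusted p = 5.12e-06 and 5.38e-07), and it passed under every alternative setting. Detection was on 2 of 3 EtOH arrays at each time and on every retinoid array.

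IL1RAPL1, a membrane protein of the interleukin 1 receptor family that organizes synapses in neurons, was 5.60 and 5.60 with EtOH at 24 h, 5.87, 6.05 and 5.96 with ATRA, and 6.27 and 6.66 with 9-cis RA. The 48 h levels were 5.16 and 5.25 with EtOH, 6.19, 6.07 and 5.99 with ATRA, and 6.94 and 7.11 with 9-cis RA. The treatments stood in the same order at both times with no overlap, and IL1RAPL1 was the one gene besides ETNPPL whose 9-cis RA minus ATRA value was larger at 48 h (0.94 ± 0.14) than at 24 h (0.50 ± 0.14). The probe was detected on 1 of 3 EtOH arrays at 24 h and 0 of 3 at 48 h, on 2 and 3 of 4 ATRA arrays, and on 3 of 3 9-cis RA arrays at each time. At 48 h the level was at least 2.52-fold higher with 9-cis RA than with EtOH and at least 1.31-fold higher with ATRA. With the pooled retinoids it rose by 0.56 ± 0.13 at 24 h and 1.26 ± 0.13 at 48 h (limma, adjusted p = 0.0157 and 2.86e-05), the latter at least 1.7-fold. The 24 h call was lost without either EtOH 24 h sample (0.56, adjusted p = 0.133 and 0.15) or without 9-cis RA replicate 2-3 (0.44, adjusted p = 0.0605). It was also lost without background correction (0.21, adjusted p = 0.0813), with equal array medians (0.56, adjusted p = 0.066) and in the authors' deposited values (0.15, adjusted p = 0.0785). The 2 tested relatives in the interleukin 1 receptor family gave 0 calls with the retinoids at either time (limma), and IL1RAP, the shared receptor subunit, had 0.63 ± 0.22 at 24 h (adjusted p = 0.0759).

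ETNPPL, ARHGDIB and VGF were closer to EtOH with ATRA than with 9-cis RA, and highest with 9-cis RA, at both times. With ATRA at 48 h ARHGDIB was 0.39 ± 0.16 above EtOH. ETNPPL encodes ethanolamine-phosphate phospho-lyase, an enzyme of phospholipid breakdown. Its levels were 4.87 and 5.00 with EtOH, 5.00, 5.16 and 5.02 with ATRA and 5.81 and 5.79 with 9-cis RA at 24 h, and 4.82 and 5.16, then 5.25, 5.10 and 4.82, then 5.96 and 5.90 at 48 h. ATRA lay just above EtOH at 24 h and overlapped it at 48 h, and 9-cis RA was above both at each time. ETNPPL was detected only with 9-cis RA, on 2 of 3 arrays at each time, and was at least 1.08-fold and 1.18-fold higher there than with EtOH. The pooled retinoids differed from EtOH by 0.42 ± 0.14 at 24 h and 0.41 ± 0.14 at 48 h. Of 11 tested enzymes of ethanolamine phospholipids, 0 passed with the retinoids at either time (limma), with a median of 0.012 at 24 h.

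ARHGDIB encodes a cytosolic protein that is abundant in leukocytes. It was 4.95 and 5.09 with EtOH at 24 h, 5.18, 5.02 and 5.31 with ATRA, and 6.38 and 5.84 with 9-cis RA. At 48 h it was 4.77 and 4.78, then 5.22, 5.09 and 5.17, then 5.84 and 5.70 in the same order. ATRA and EtOH overlapped at 24 h and not at 48 h, and 9-cis RA lay above both at each time. Detection was on 2 of 3 arrays with 9-cis RA at each time, on 1 of 4 with ATRA and on 0 of 3 with EtOH, and the level was at least 1.34-fold higher with 9-cis RA than with EtOH at 24 h and at least 1.05-fold higher at 48 h. The pooled retinoids differed from EtOH by 0.52 ± 0.15 at 24 h and 0.63 ± 0.15 at 48 h. The pooled means of 5.54 and 5.40 lay under the detection bound, so that no fold is given. At 24 h ARHGDIB was no longer past the threshold in 9 of 12 settings other than leaving a sample out. Among them were no background correction (0.18), equal array medians (0.51), the authors' values (0.12) and the larger array set alone (0.55). Of 5 leukocyte markers, 2 have a named probe and 0 passed the detection filter.

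VGF, a secreted precursor of neuropeptides stored with the granins, was detected on all 20 arrays. It was 11.99 and 11.90 with EtOH at 24 h, 12.12, 11.92 and 11.91 with ATRA, and 12.76 and 12.76 with 9-cis RA. At 48 h the levels were 11.70 and 12.18 with EtOH, 12.27, 12.46 and 12.11 with ATRA, and 12.85 and 12.96 with 9-cis RA. ATRA overlapped EtOH at both times and 9-cis RA was above both. The 9-cis RA minus EtOH difference was 0.82 ± 0.18 at 24 h and 0.96 ± 0.18 at 48 h, and the ATRA minus EtOH difference 0.04 ± 0.16 and 0.34 ± 0.16. The pooled retinoids differed from EtOH by 0.35 ± 0.15 at 24 h, which did not pass, and VGF rose by 0.59 ± 0.15 at 48 h (limma, adjusted p = 0.132 and 0.0143). The 48 h call was lost without EtOH 48 h replicate 1 (0.35, adjusted p = 0.212) or 9-cis RA 48 h replicate 2-3 (0.48, adjusted p = 0.0585), with equal array medians (0.35, adjusted p = 0.191) and with only the compared groups in the fit (0.59, adjusted p = 0.0719). Of 4 tested granins and neuropeptide processing genes, PCSK1N, an inhibitor of the convertase that cuts such precursors, fell by 0.65 ± 0.18 at 24 h (limma, adjusted p = 0.0346).

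PHLDA2 and UPP1 stood out with 9-cis RA mainly at 24 h. PHLDA2 is an imprinted gene that restrains placental growth. It was 4.95 and 5.15 with EtOH at 24 h, 5.15, 5.77 and 4.95 with ATRA, and 6.76 and 6.70 with 9-cis RA. Its 48 h levels were 5.48 and 5.10 with EtOH, 5.13, 5.02 and 5.04 with ATRA, and 5.44 and 5.98 with 9-cis RA. At 24 h the 9-cis RA samples were clear of all others, and at 48 h they overlapped EtOH. PHLDA2 was detected on 3 of 3 arrays with 9-cis RA at 24 h and 1 of 3 at 48 h, on 1 of 4 with ATRA at each time and on 0 of 3 with EtOH at each time, and exceeded EtOH at least 2.06-fold with 9-cis RA at 24 h. The pooled retinoids differed from EtOH by 0.81 ± 0.21 at 24 h, at least 1.13-fold, and by 0.03 ± 0.21 at 48 h. Of 5 tested relatives and neighbours of PHLDA2, PHLDA1 rose by 1.18 ± 0.16 at 24 h and 1.64 ± 0.16 at 48 h (limma, adjusted p = 0.000469 and 1.94e-05), and its 9-cis RA minus ATRA value was 0.20 ± 0.18 at 24 h. NAP1L4, a histone chaperone, also rose at 24 h (0.49 ± 0.13, adjusted p = 0.0315) and PHLDA3, a p53 target, at 48 h (0.56 ± 0.15, adjusted p = 0.0192).

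UPP1 encodes uridine phosphorylase, which splits uridine into uracil and ribose phosphate. The probe with the higher signal was detected on all 20 arrays and gave 9.45 and 9.56 with EtOH at 24 h, 9.77, 9.74 and 9.78 with ATRA, and 10.83 and 10.74 with 9-cis RA. At 48 h it gave 9.76 and 9.16 with EtOH, 8.79, 8.89 and 9.21 with ATRA, and 9.24 and 9.39 with 9-cis RA. UPP1 was thus highest with 9-cis RA at 24 h, and at 48 h the 9-cis RA samples lay between the EtOH samples. The 9-cis RA minus EtOH difference was 1.28 ± 0.19 at 24 h and -0.14 ± 0.19 at 48 h. With ATRA alone the 24 h difference from EtOH was 0.26 ± 0.18, which did not pass (limma, adjusted p = 0.436). The pooled retinoid samples include those of 9-cis RA. They differed from EtOH by 0.67 ± 0.16 at 24 h and -0.35 ± 0.16 at 48 h (limma, adjusted p = 0.0183 and 0.146). The change of this effect between the times was -1.02 ± 0.23 and did not pass over all genes (limma, adjusted p = 0.237). The second UPP1 probe was detected on 6 of 20 arrays and did not show the pattern: its 9-cis RA minus ATRA value was 0.17 ± 0.27 at 24 h and -0.38 ± 0.27 at 48 h, and its retinoid minus EtOH value 0.04 ± 0.25 at 24 h. The 24 h call of the first probe was also lost without either EtOH 24 h sample (0.61 and 0.72, adjusted p = 0.172 and 0.13) or either 9-cis RA 24 h sample (0.50 and 0.52, adjusted p = 0.113 and 0.0974). Of 8 tested genes of pyrimidine salvage and breakdown, TYMP, thymidine phosphorylase, fell by 0.48 ± 0.13 at 24 h and 0.60 ± 0.13 at 48 h (limma, adjusted p = 0.0318 and 0.00643).

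ADGRG1 fell with the pooled retinoids, and its levels with 9-cis RA lay between those with EtOH and ATRA. It encodes an adhesion G protein-coupled receptor, also called GPR56, that binds matrix proteins and shapes cortical development. The probe with the higher signal gave 6.73 and 6.55 with EtOH at 24 h, 4.98, 5.45 and 5.12 with ATRA, and 6.19 and 6.41 with 9-cis RA. At 48 h it gave 6.93 and 6.79 with EtOH, 5.09, 5.20 and 5.17 with ATRA, and 5.84 and 5.44 with 9-cis RA. The 3 treatments did not overlap at either time, with EtOH highest and ATRA lowest. The probe was detected on all 3 EtOH arrays and 0 of 4 ATRA arrays at each time, and on 3 and 2 of 3 arrays with 9-cis RA. EtOH was at least 1.66-fold higher than ATRA at 24 h and at least 2.14-fold higher at 48 h, and 9-cis RA at least 1.31-fold higher than ATRA at 24 h. The ATRA minus EtOH difference was -1.46 ± 0.17 at 24 h and -1.70 ± 0.17 at 48 h, and the 9-cis RA minus EtOH difference -0.34 ± 0.18, which did not pass (limma, adjusted p = 0.221), and -1.22 ± 0.18. With the pooled retinoids ADGRG1 fell by 1.01 ± 0.15 at 24 h and 1.51 ± 0.15 at 48 h (limma, adjusted p = 0.00103 and 2.38e-05). The second probe gave -1.32 ± 0.16 and -1.72 ± 0.16 for the same differences. Its 9-cis RA minus EtOH value at 24 h was -0.86 ± 0.19 and its 9-cis RA minus ATRA value 0.77 ± 0.18, against 1.12 ± 0.17 for the first probe. Of 5 other adhesion receptors tested, ADGRL2 rose at 24 h by 0.53 ± 0.12 (limma, adjusted p = 0.0141).

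DNM3, a dynamin GTPase that pinches off vesicles and is abundant in the brain, lay on either side of EtOH at 24 h. It was 5.57 and 5.32 with EtOH, 4.88, 4.95 and 4.82 with ATRA, and 6.09 and 5.88 with 9-cis RA at that time, with no overlap. At 48 h it was 4.91 and 4.90, then 4.99, 4.65 and 4.62, then 5.14 and 5.25, with 9-cis RA still the highest. DNM3 was detected on 2 of 3 arrays each of EtOH and 9-cis RA at 24 h and on 0 arrays of the other groups, and 9-cis RA was at least 1.05-fold higher than ATRA at 24 h. The 9-cis RA minus EtOH difference at 24 h was 0.54 ± 0.16 and the ATRA minus EtOH difference -0.56 ± 0.15. Pooled, these left -0.12 ± 0.14 at 24 h and 0.03 ± 0.14 at 48 h. Of 7 tested dynamins and endocytic partners, 0 passed with the retinoids at either time (limma).

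Against EtOH, the retinoids taken singly share samples with the choice of genes and share their controls with each other, so their counts are given without a reading. With 9-cis RA 9 of the 10 were past the threshold on the higher side at 24 h (8.7% of all genes), all but ADGRG1. At 48 h 6 were higher (5.53%) and ADGRG1 lower (5.49%). With ATRA KIAA1217 was higher at 24 h (3.29%), and ADGRG1 and DNM3 lower (2.46%). At 48 h SERPINA3, IL1RAPL1 and KIAA1217 were higher with ATRA (8.61%) and ADGRG1 was lower (8.78%).

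**Figure D2:**
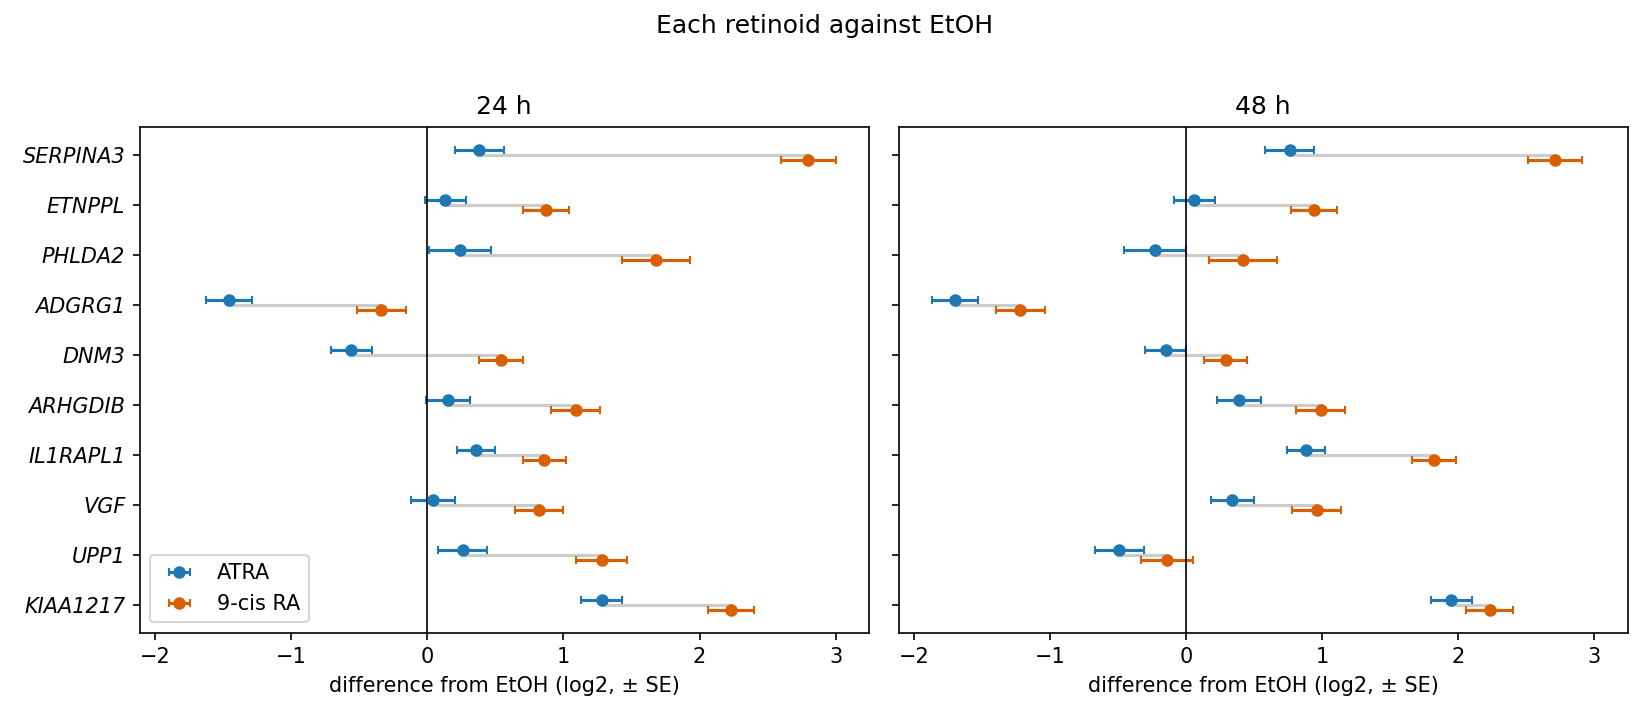
Difference of each retinoid from EtOH on the log2 scale, with standard errors, for the 10 genes at 24 h (left) and 48 h (right); blue is ATRA and orange 9-cis RA. ADGRG1 is below EtOH with both retinoids at both times, DNM3 lies on either side of EtOH at 24 h, and PHLDA2 and UPP1 with 9-cis RA are closer to EtOH at 48 h than at 24 h.

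Time in EtOH alone is a comparison that the choice of genes does not use. Between 24 and 48 h of EtOH 0 of the 10 genes passed (limma), where 0.0281% of all genes did, and 3 had an unadjusted p under 0.05. These were DNM3 (-0.54 ± 0.16), KIAA1217 (0.41 ± 0.17) and IL1RAPL1 (-0.40 ± 0.16). SERPINA3, ETNPPL, PHLDA2 and ARHGDIB were detected on 0 of 3 EtOH arrays at each time. For them signals under detection are compared, which cannot show a lack of change. The change of the joint retinoid effect between the times gave 0 of the 10 past the threshold, against 0.103% of all genes, and 4 with an unadjusted p under 0.05. UPP1, IL1RAPL1 (0.70 ± 0.19, adjusted p = 0.39) and PHLDA2 (-0.78 ± 0.29) had the widest changes in that limma fit. For PHLDA2, SERPINA3, ETNPPL, DNM3 and ARHGDIB, which passed the filter through 9-cis RA arrays, this change is a description with no test. The 9-cis RA minus ATRA value was smaller at 48 h than at 24 h in 8 of the 10 genes, the exceptions being IL1RAPL1 and ETNPPL. In this change 0 of the 10 passed (limma), where 0.00937% of all genes were past the threshold on the lower side. The genes were chosen on these values, so nothing is read from the count of 8 or from the 0 calls.

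**Figure D3:**
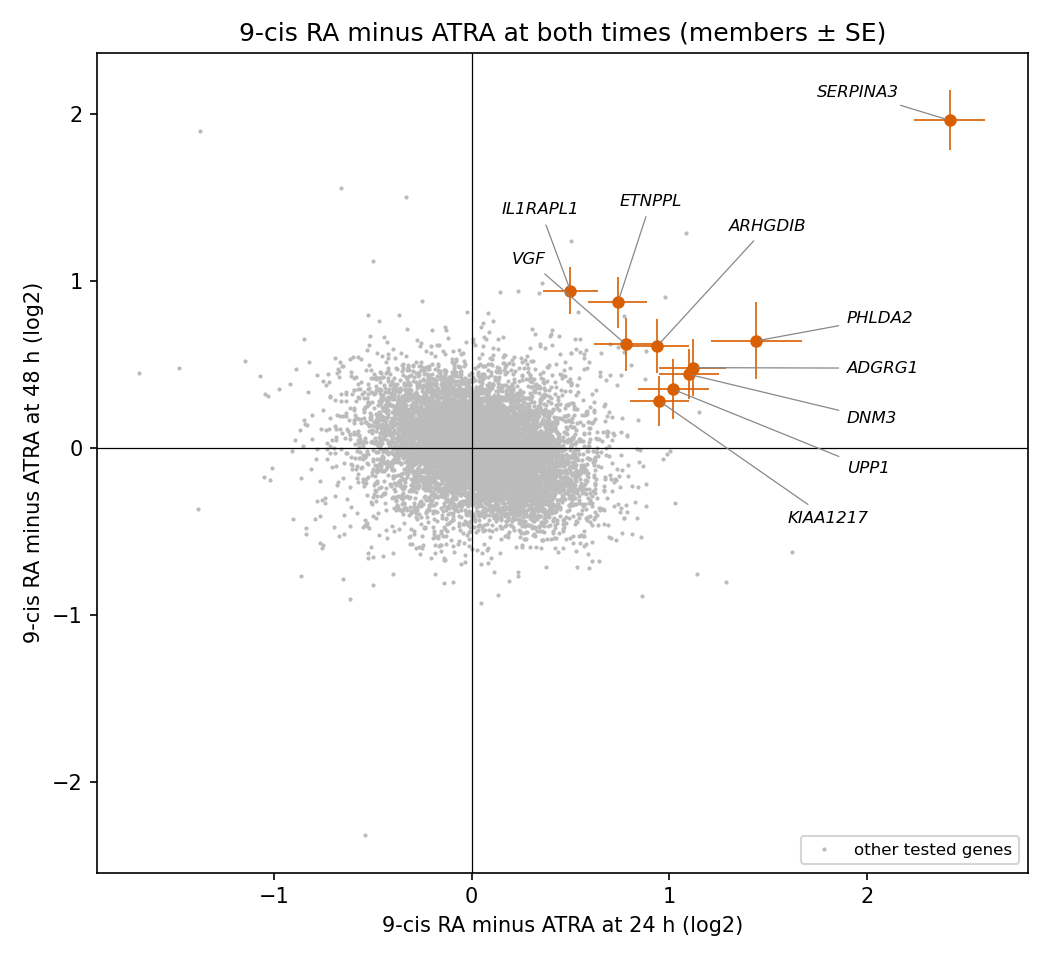
Difference of 9-cis RA from ATRA on the log2 scale at 24 h (horizontal) and 48 h (vertical) for the 10673 tested genes, with the 10 genes in orange with standard errors. SERPINA3 lies alone at 2.42 and 1.96, and the other 9 genes lie between 0.50 and 1.44 at 24 h and between 0.28 and 0.94 at 48 h.

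Across the 14 samples, the mean of the 10 genes' standardized levels was 1.43 and 1.3 in the 9-cis RA samples at 24 h and 0.8 and 0.83 at 48 h. It was between -0.58 and -0.27 in all other samples, ATRA 24 h replicate 4 being at -0.5. That sample entered the ATRA mean by which the genes were chosen, so nothing is read from its low value. Without it the 9-cis RA minus ATRA value at 24 h was 2.32 for SERPINA3 and 0.50 or more for each of the 10 genes. Each gene's correlation with the mean of the other 9 over the 14 samples was highest for SERPINA3 (Pearson r = 0.93), ARHGDIB (0.91) and ETNPPL (0.9), and lowest for KIAA1217 (0.5) and ADGRG1 (-0.05). These samples share array sets and treatment groups, and the correlations describe the pattern only.

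Other genes outside the 10 with the same order were picked by fixed rules from the same samples. Those with the largest mean difference of 9-cis RA from ATRA outside the 10 were ECM1 (1.19), an extracellular matrix protein, SLC26A4 (0.94), an anion exchanger, SEMA3A (0.87), a secreted guidance cue, KLF9 (0.78), a transcription factor, and ABCA1 (0.76), the cholesterol exporter. The genes whose levels over the 14 samples were most like the mean of the 10 were ECM1 (Pearson r = 0.952), RNFT2 (0.901), ICA1 (0.872), IKBKG (0.84) and IFI44 (0.83). ECM1, named by both rules, differed from EtOH with the pooled retinoids by 0.44 ± 0.11 at 24 h and 0.75 ± 0.11 at 48 h. The pooled mean holds the 9-cis RA samples by which ECM1 was picked, so these values are a description with no test.

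Lists of target genes of the receptors that pair with RXRs were set beside the 10 genes. Of 12 tested LXR targets, 1 passed in the 9-cis RA minus ATRA difference at 24 h, ABCA1 (1.11 ± 0.17, limma, adjusted p = 0.0434), which is also one of the genes picked above by that difference. Of all genes, 0.0656% were past the threshold on the higher side in that difference at 24 h. The median of the 12 was then 0.22 against 0.035 over all genes, and PLTP, on the same list, was at -0.44 ± 0.16. At 48 h 0 of the 12 passed (limma), with a median of 0.1 and ABCA1 at 0.42 ± 0.17. Of 11 tested PPAR targets 0 passed in that difference at 24 or 48 h (limma), and CD36, a fatty acid transporter, had 0.93 ± 0.16 at 48 h (adjusted p = 0.0818). Of 7 tested retinoic acid response genes 6 rose with the pooled retinoids at 24 h, against 6.86% of all genes, and 7 at 48 h, against 9.53%. In the difference between the retinoids, CYP26B1, a retinoic acid hydroxylase, was lower with 9-cis RA at 48 h (-2.32 ± 0.14, limma, adjusted p = 3.66e-06), in the opposite direction to the 10 genes.

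The normalization moved the size of the differences and not their direction. In the authors' deposited log2 values the 9-cis RA minus ATRA difference at 24 h ranged from 0.15 to 0.91 over the 10 genes, with SERPINA3 at 0.71, and without background correction it ranged from 0.22 to 1.02. It stayed above 0 for all 10 genes at both times in each of these, and in each array set alone.

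**Figure D4:**
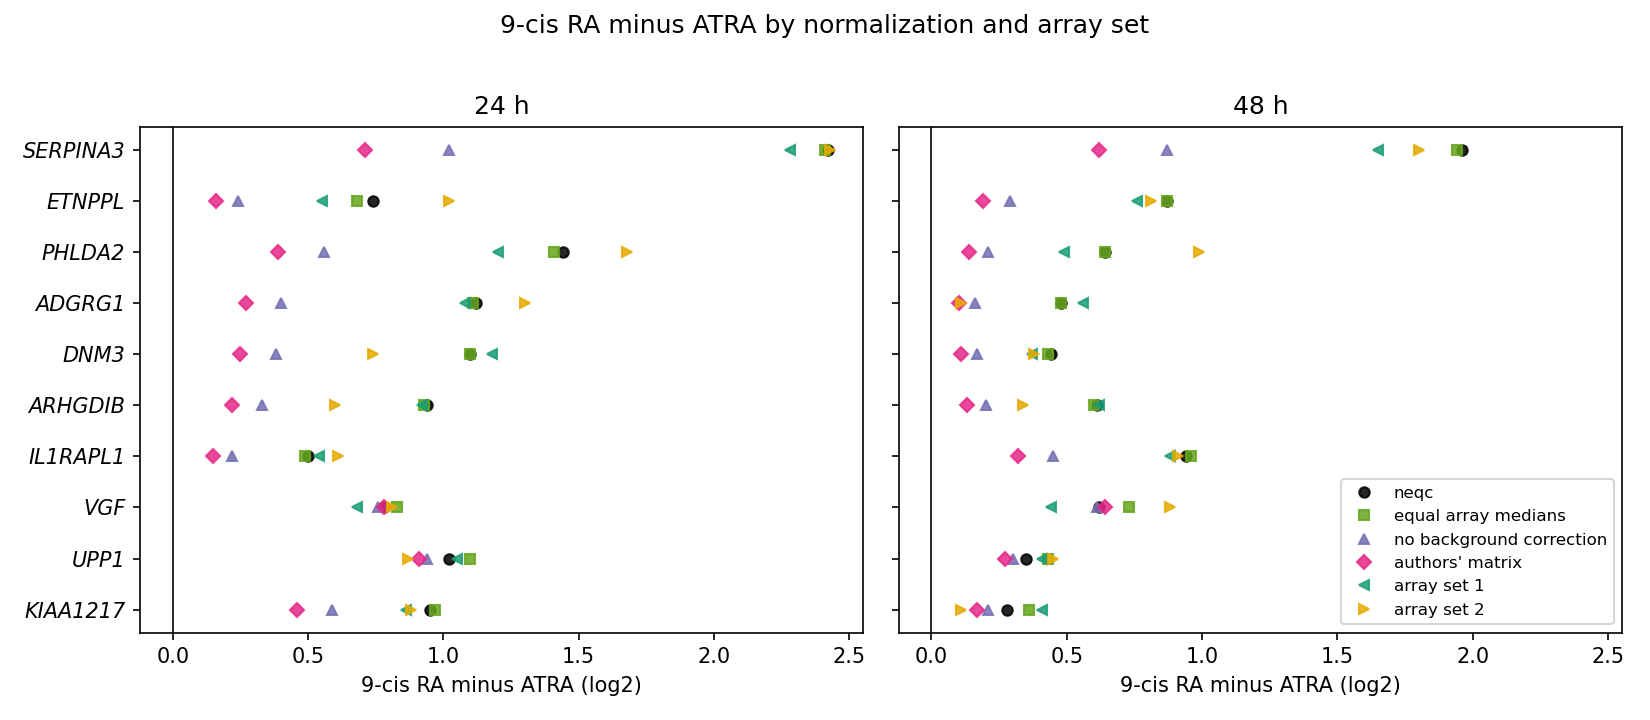
Difference of 9-cis RA from ATRA on the log2 scale for the 10 genes at 24 h (left) and 48 h (right) under the normalization of the text (neqc), equal array medians, no background correction, the authors' matrix, and within each array set. Values without background correction and in the authors' matrix are smaller for the genes near the detection limit, such as SERPINA3 (2.42, 1.02 and 0.71 at 24 h), and similar for VGF and UPP1, which were detected on all arrays; all lie above 0.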

How the data were processed

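The deposited table holds the intensity of each probe on 20 Illumina BeadChips, per the file headers without normalization, each with the detection p-value the authors deposited. The authors' log2 values in the series matrix were made with lumi, per the submitters' processing notes, and served as an alternative. The software was R 4.3.3, limma 3.58.1, Python 3.11.15 and, for figures, matplotlib 3.10.9. limma's neqc (offset 16) corrected the background, quantile normalized and took log2. A probe was kept if its detection p was below 0.01 on 3 or more arrays, and the brightest kept probe by mean represents each of 10673 genes. The number of arrays limits the precision. Probes were named from the platform annotation.

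limma estimated 6 group means with moderated variances (residual degrees of freedom 8, prior 5.09), with p-values adjusted over all genes by Benjamini and Hochberg and a threshold of 0.05. The fit was tested on simulated data with known changes. There the pooled comparison at 24 h recovered 26.9% of 1.5-fold, 80.6% of 2-fold and 100% of 4-fold changes. Of its calls, 3.5% were false. The genes, lists and tests were chosen with earlier results of these data known. Named besides the 10 genes are the 5 others with the largest mean difference of 9-cis RA from ATRA, the 5 most correlated with the mean of the 10, up to 4 genes a list with the lowest p, CYP26A1 and RARB. Alternatives covered normalization, filter, probe, arrays as samples, array set, samples that stood apart, and each sample left out. The result of 1 gene list is not reported here.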

Additional observations from a re-analysis of the deposited data

How the results depend on the processing

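For the joint retinoid effect at 24 h, 7 of the 10 genes passed, 1 in the smaller array set alone and 2 once the 4 samples that stand apart are dropped, where ATRA alone remains at that time; with each sample left out in turn the count ran from 3 to 8. At 48 h 6 passed, 2 in the smaller array set alone, and 4 to 8 with a sample left out. In EtOH over time 0 passed under every setting, also with each sample left out (0 to 0). SERPINA3, ETNPPL, PHLDA2 and ARHGDIB were undetected in EtOH, so nothing is read from this for them. UPP1 turned direction at 48 h with its second probe, from 0.35 to -0.38 for 9-cis RA minus ATRA. Counts over all genes moved more: 1258 at 24 h (302 to 1989 with a sample left out, 128 to 2914 otherwise), 2059 at 48 h (936 to 3346, and 126 to 2782) and 3 in EtOH over time (0 to 366, and 0 to 43). The 24 h calls of PHLDA2, ARHGDIB, IL1RAPL1 and UPP1 were lost without either EtOH 24 h sample, where the standard errors were wider. SERPINA3, ADGRG1 and KIAA1217 passed with any 1 sample left out at both times. Of the values of single genes in the 3 tested comparisons, 737 kept their direction and side of the threshold, 50 lost and 14 gained a call. ARHGDIB lost its call without background correction and in the authors' values at 24 h (0.18 and 0.12). At 48 h it lost the call in the same settings (0.23 and 0.14, limma, adjusted p = 0.0525 and 0.0651). Of the differences between the retinoids, 474 moved by less than the spread, 49 by more and 1 turned. The causes of these changes were not tested. No paired analysis was possible because the labels give no number that ties a treated sample to a control. Genes near the detection limit have differences that are set in part by the background correction.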
